A study of Mus musculus with 4 samples.

Results

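The transcription factors that set up and maintain sympathetic neurons were measured by RNA-seq in sympathetic ganglia (SG) of cold-exposed mice. They were 8 named genes, *Phox2a*, *Hand1*, *Hand2*, *Gata2*, *Gata3*, *Isl1*, *Insm1* and *Tfap2b*, matched by symbol and chosen with earlier results of these data known. All 8 were listed in all 4 libraries, among 15275 genes that were. Each library was a pool of thoracic T1–T4 ganglia from several C57BL/6 mice, 12 weeks old and kept for 1 day at 5 °C. There were 2 WT libraries (WT_1 and WT_2), 1 library from mice heterozygous for the NT-3 receptor TRKC (TRKC+/-, with 1 allele of *Ntrk3* lost in every tissue), and 1 from AdNTF3-Tg mice, in which a promoter of the adiponectin gene drives NT-3 in adipocytes rather than in neurons. The labels do not say which WT library is the control of which mutant. The names of the deposited tables couple WT_1 with TRKC+/- and WT_2 with AdNTF3-Tg, and the study describes a control for each mutant, so that the WT libraries may come from separate cohorts. Groups were taken from the labels alone. Both WT libraries were therefore used as 1 control group, in which a cohort and the spread between libraries cannot be told apart, and each mutant was also compared with each WT library alone. Where 4 values follow each other, they stand for WT_1, WT_2, the library labelled TRKC+/- and AdNTF3-Tg.

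Sympathetic neurons arise from neural crest cells under a set of transcription factors that switch each other on in response to bone morphogenetic protein signals from the dorsal aorta. The homeodomain factor PHOX2A and the HAND and GATA factors then turn on the enzymes of noradrenaline synthesis, and several of them are still needed in the adult neuron to keep those enzymes expressed. ISL1 and INSM1 act in newly formed neurons and in endocrine cells, and AP-2β, the product of *Tfap2b*, acts from the neural crest onwards. The comparison asked whether gain of NT-3 in fat or loss of an allele of its receptor goes with a different level of this set in the ganglia.

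The promoter letters of 4 of these genes are shown first. *Hand2* and *Phox2a* were the members with the highest levels, *Tfap2b* had the largest difference between either mutant and WT among the members with at least 20 reads in every library, and *Gata3* was the member that was lower in the library labelled TRKC+/-. Each run holds the 250 bases before the RefSeq start on the strand of the gene, from a RefSeq table made on GRCm38.p6, and each matched 1 place in the NCBIM37 (mm9) genome, whose positions are given. The windows of *Tfap2b* and *Gata3* lie inside the spans annotated for these genes, at a later start. Capitals mark every GATA, read on either strand (GATA or TATC), and every E-box CANNTG, the kinds of site that GATA and HAND proteins are known to bind.
*Hand2*, chr8:59799530-59799779, + strand: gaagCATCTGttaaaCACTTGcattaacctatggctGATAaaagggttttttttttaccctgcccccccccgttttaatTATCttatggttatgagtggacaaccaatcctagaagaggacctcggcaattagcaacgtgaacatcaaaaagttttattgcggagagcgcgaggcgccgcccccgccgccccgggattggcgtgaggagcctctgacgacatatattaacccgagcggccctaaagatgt
*Phox2a*, chr7:108966577-108966826, + strand: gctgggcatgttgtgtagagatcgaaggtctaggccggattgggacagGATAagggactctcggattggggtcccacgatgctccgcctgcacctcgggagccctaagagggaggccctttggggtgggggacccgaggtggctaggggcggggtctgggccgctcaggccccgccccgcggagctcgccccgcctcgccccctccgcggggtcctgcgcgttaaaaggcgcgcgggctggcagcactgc
*Tfap2b*, chr1:19201885-19202134, + strand: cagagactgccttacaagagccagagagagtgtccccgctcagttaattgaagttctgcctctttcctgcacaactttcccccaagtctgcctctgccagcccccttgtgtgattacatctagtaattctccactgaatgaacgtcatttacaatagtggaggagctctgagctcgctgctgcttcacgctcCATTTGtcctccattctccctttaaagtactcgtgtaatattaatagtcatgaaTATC
*Gata3*, chr2:9800228-9800477, − strand: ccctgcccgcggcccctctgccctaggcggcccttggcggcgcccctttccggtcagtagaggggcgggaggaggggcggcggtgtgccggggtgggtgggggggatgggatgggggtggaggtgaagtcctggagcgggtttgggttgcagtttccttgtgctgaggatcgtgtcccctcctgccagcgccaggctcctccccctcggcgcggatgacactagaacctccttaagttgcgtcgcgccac
The *Hand2* window held 2 GATA and 2 E-box matches, *Tfap2b* 1 of each, *Phox2a* 1 GATA and no E-box, and *Gata3* neither. The *Gata3* and *Phox2a* windows were rich in G and C (70.0% and 70.4%), whereas those of *Hand2* (49.2%) and *Tfap2b* (46.4%) lay below the median of 52.4% over 32851 promoters. The table held 7 promoters of 6 members, *Gata2* with a pair of starts, and no entry for *Hand1* and *Insm1*. GATA was found in 4 of those 7 promoters and in 53.6% of all promoters, and CANNTG in 3 of 7 and in 66.2%. The homeodomain core TAAT, on either strand, was in 3 of 7 and in 54.9%, GCCNNNGGC, a form of the AP-2 site, in 2 of 7 and in 13.7%, and TATAAA, on either strand, in 0 of 7 and in 12.4%. Matches of different motifs may overlap. They describe letters in a window and were not tested for binding.

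The reads on genes summed to between 8665955 and 8894985 per library. Levels are given as FPKM, which scales the reads of a gene to its length and to the library and so allows genes to be compared. The ganglia had the markers of their labelled tissue, in that the 6 sympathetic neuron markers, among them *Th*, *Dbh* and *Prph*, summed to between 6827 and 7014 FPKM. The chromaffin cell enzyme gene *Pnmt* was not listed in any library. Skeletal muscle markers differed between libraries, with a sum of 69.4 FPKM in WT_1, 2.33 in WT_2, 31.8 for the library labelled TRKC+/- and 26.6 for AdNTF3-Tg, as did the adipocyte markers (82.5, 73.2, 33.0 and 60.0), of which *Ucp1* alone had 47.3, 48.1, 7.80 and 37.8, and their part in the results below was not tested. *Ntrk3*, the gene targeted in TRKC+/- mice, had 2.45 FPKM in WT_1, 2.52 in WT_2, 2.72 for the library labelled TRKC+/- and 2.32 for AdNTF3-Tg, with 76 to 91 reads. It was thus not lower in the library labelled TRKC+/-. Whether the label is right was not tested, and every direction given for that library rests on the label. Reads were counted over the whole gene, so that transcripts of the altered and the intact allele cannot be told apart.

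In adult ganglia 7 of the 8 members had at least 9.06 FPKM in every library, and the order of the 8 was the same in 4 of 4 libraries: *Hand2*, *Phox2a*, *Hand1*, *Isl1*, *Gata2*, *Tfap2b*, *Gata3* and, far below, *Insm1*. For each pair of neighbours in this order the ranges over the 4 libraries did not overlap. The closest neighbours were *Isl1* and *Gata2*, where the lowest *Isl1* value was 1.06 times the highest *Gata2* value.

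*Hand2* (Entrez 15111, chr8:59799780-59803314 on NCBIM37, + strand) encodes a basic helix-loop-helix factor needed for noradrenergic differentiation. It had 234 FPKM in WT_1, 236 in WT_2, 247 for the library labelled TRKC+/- and 237.5 for AdNTF3-Tg, a mean of 238 ± 5.65 (SD over the 4 libraries), from 4435 to 4778 reads. This placed it at the 98.1st percentile of genes by mean FPKM. Its paralog *Hand1* (Entrez 15110, chr11:57642207-57646320, − strand), better known for its role in the heart and placenta, had 71.3, 72.2, 74.8 and 73.0 FPKM in those libraries. The 4 values of *Hand1* lay within 1.05-fold of each other, the narrowest range of the 8 genes.

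*Phox2a* (Entrez 11859, chr7:108966827-108971680, + strand), a homeodomain factor that activates the *Dbh* promoter, was the second member by level, with 152 FPKM in WT_1, 152 in WT_2, 168 for the library labelled TRKC+/- and 142 for AdNTF3-Tg. The WT libraries were nearly equal, and the mutants lay on opposite sides of them. *Phox2a* overlaps *Inppl1* on the other strand, which had 13.8 to 16.0 FPKM, and whether the counting used strand is not given in the sources used here. *Isl1* (Entrez 16392, chr13:117088478-117099896, − strand), a LIM-homeodomain gene of sympathetic, sensory and motor neurons, had 51.85, 51.6, 55.7 and 53.8 FPKM.

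Of the zinc finger genes, *Gata2* (Entrez 14461, chr6:88143885-88157024, + strand) had 44.2 FPKM in WT_1, 43.9 in WT_2, 48.85 for the library labelled TRKC+/- and 43.8 for AdNTF3-Tg. *Gata3* (Entrez 14462, chr2:9778705-9811661, − strand), which is needed for survival of sympathetic neurons, had 9.48, 9.77, 9.06 and 10.6 FPKM from 258 to 297 reads. It was the only one of the 8 genes whose lowest value was in the library labelled TRKC+/-. A gene on its other strand, *4930412O13Rik*, overlaps it and had 3.64 to 4.37 FPKM, and *9230102O04Rik*, on the same strand, also overlaps it and had at most 1.49 FPKM. *Tfap2b* (Entrez 21419, chr1:19198995-19228815, + strand, annotated there as *Tcfap2b*) had 19.1, 18.75, 22.0 and 21.7 FPKM, so that both mutants lay above both WT libraries.

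*Insm1* (Entrez 53626, chr2:146047657-146050752, + strand), a zinc finger gene best known from dividing neuronal and endocrine progenitors, stood apart. It had 0.35 FPKM in WT_1 (9 reads), 0.91 in WT_2 (24 reads), 0.94 for the library labelled TRKC+/- (25 reads) and 0.69 for AdNTF3-Tg (18 reads). WT_1 was the low one. The log2 ratio of the library labelled TRKC+/- to WT_1 was 1.21 (95% counting interval 0.29 to 2.72), and that of AdNTF3-Tg to WT_1 was 0.81 (−0.25 to 2.31). The ratio of the library labelled TRKC+/- to WT_2 was 0.04 (−0.82 to 0.92), and that of AdNTF3-Tg to WT_2 was −0.35 (−1.38 to 0.53). *Gata3*, the next member above it, was 13.4-fold higher by mean FPKM.

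**Figure D1:**
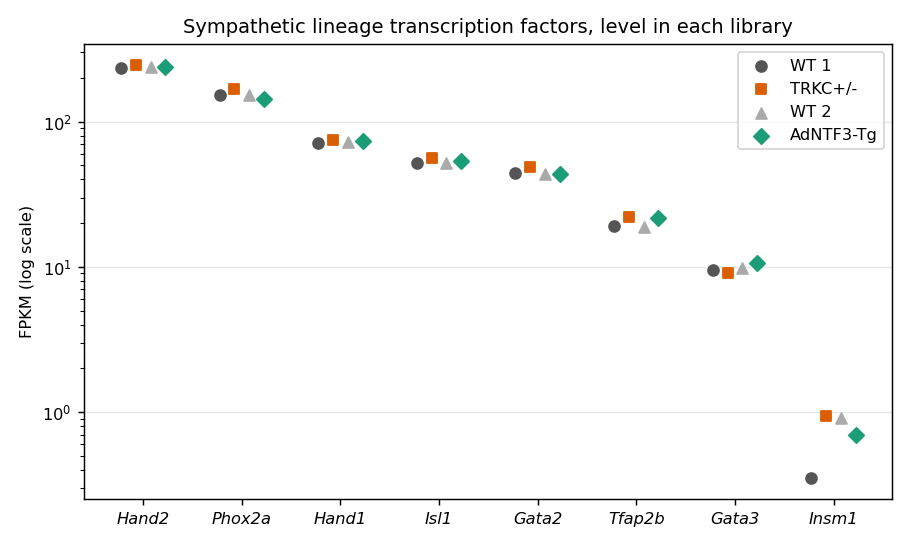
FPKM (log scale) of each of the 8 genes in each of the 4 libraries, 1 point per library, in order of mean level. *Hand2* sits at 234 to 247 FPKM and *Gata3* at 9.06 to 10.6, with the 4 libraries close together for each gene, whereas *Insm1* lies under 1 FPKM with WT_1 lowest.

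Against the mean of the WT libraries, the log2 ratio of FPKM + 0.1 in the library labelled TRKC+/- was between −0.09 for *Gata3* and 0.22 for *Tfap2b* among the 7 genes other than *Insm1*. In AdNTF3-Tg it was between −0.10 for *Phox2a* and 0.20 for *Tfap2b*, with *Insm1* at 0.11. At the study's cutoff of an absolute log2 ratio of at least 0.5, 1 of the 8 members passed in the library labelled TRKC+/-, *Insm1* at 0.51, where 8.56% of all 15275 genes passed. In AdNTF3-Tg 0 of 8 passed, where 11% of all genes did. Between the WT libraries 1 of 8 passed, again *Insm1*, at 1.17 for WT_2 over WT_1, and 13.4% of all genes passed. Against WT_1 alone, *Insm1* passed in both mutants (1 of 8 each, at 1.21 and 0.81), where 10.7% of all genes passed in the library labelled TRKC+/- and 13.9% in AdNTF3-Tg. Against WT_2 alone, 0 of 8 passed in either, where 12.7% and 13.3% of all genes did. The median absolute log2 ratio of the members was 0.13 in the library labelled TRKC+/-, against 0.12 over all genes, and 0.08 in AdNTF3-Tg, against 0.15. Between the WT libraries it was 0.02, against 0.15 over all genes. The median coefficient of variation over the 4 libraries was 5.95% for the members, 9.94% for all genes and 6.31% for the 6798 genes with 10 FPKM or more on average.

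With edgeR's quasi-likelihood test, in which the WT libraries supply the only replication (1 residual degree of freedom) and each lone mutant library is assumed to vary as they do, 0 of 8 members, all of which passed the filter on low counts, were called in either comparison. Adjusted p-values (Benjamini-Hochberg over 14156 genes) were 0.999 for each member in the library labelled TRKC+/- and from 0.82 to 0.99 in AdNTF3-Tg. Over all genes, 1 (0.00706%) was called in the former, the brown adipocyte gene *Ucp1*, and 0 (0%) in the latter, with 273 and 832 genes at an unadjusted p under 0.05. DESeq2 called 2 and 0, with 21 and 64 at an unadjusted p under 0.05. *Tfap2b* had the smallest unadjusted p of the members in both comparisons. Its log2 difference was 0.22 in the library labelled TRKC+/- (SE 0.093, 95% interval 0.00084 to 0.43, unadjusted p = 0.0493, adjusted p = 0.999) and 0.20 in AdNTF3-Tg (SE 0.093, −0.01 to 0.42, unadjusted p = 0.0604, adjusted p = 0.82). Both comparisons share the WT libraries, and the mutants were above both WT libraries in each case.

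The edgeR intervals give the range of differences that the fit allows. They hold no spread within a mutant group, since each mutant has 1 library, and so do not bound the difference between genotypes. For *Hand2*, the most deeply read member, the 95% interval was −0.09 to 0.22 in the library labelled TRKC+/- and −0.14 to 0.17 in AdNTF3-Tg. *Phox2a* had −0.04 to 0.33 and −0.28 to 0.09, *Gata2* −0.06 to 0.35 and −0.21 to 0.20, and *Gata3* −0.43 to 0.25 and −0.20 to 0.47. For *Insm1* it ran from −0.84 to 1.98 and from −1.36 to 1.61, past the cutoff in both directions. For the other 7 genes, intervals in both comparisons stayed inside the cutoff of 0.5.

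**Figure D2:**
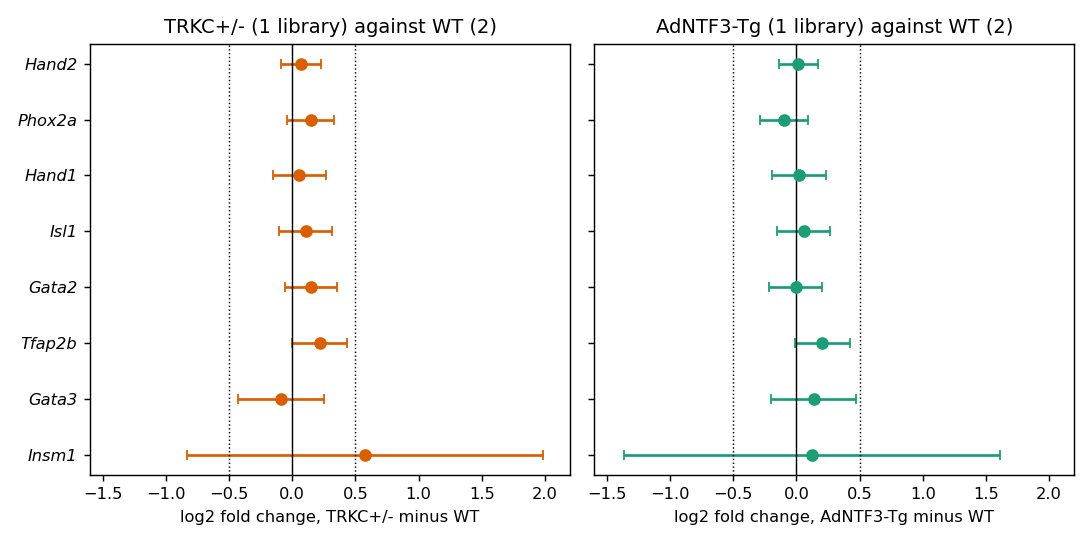
Log2 fold change from edgeR (points) with its 95% interval (bars) for each member, in the library labelled TRKC+/- (left) and in AdNTF3-Tg (right) against the 2 WT libraries. Solid lines mark 0 and dotted lines the cutoff of 0.5. The bars of 7 genes lie between the dotted lines and those of *Insm1* reach past them on both sides.

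By direction alone, 7 of the 8 members were above both WT libraries in the library labelled TRKC+/-, where 31.9% of all genes were, and 1, *Gata3*, was below both, where 30.8% were. The summed level of the 8 genes was 626 FPKM there, against 582 and 585 in WT_1 and WT_2 and 583 in AdNTF3-Tg. In AdNTF3-Tg 5 members were above both WT libraries (33.7% of all genes) and 2 below both (34% of all genes). These shares are not a like background, since a narrow gap between the WT libraries leaves more values outside it. The median absolute log2 ratio of WT_2 over WT_1 was 0.02 for the members and 0.15 for all genes. Members read in 1 library are not independent of each other, and the size of each difference is that given above. In bulk ganglia, a different number of neurons and a different amount of RNA per neuron cannot be told apart. Relative to the sum of the 6 sympathetic neuron markers in the same library, the log2 ratio to WT in the library labelled TRKC+/- was 0.04 for *Hand2*, 0.11 for *Phox2a*, 0.03 for *Hand1*, 0.07 for *Isl1*, 0.11 for *Gata2*, 0.18 for *Tfap2b*, −0.12 for *Gata3* and 0.55 for *Insm1*, the gene of few reads. In AdNTF3-Tg the ratios of the 8 ran from −0.10 for *Phox2a* to 0.20 for *Tfap2b*.

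Counting error alone, as a 95% interval of the log2 ratio (exact, Clopper-Pearson, from the reads of a mutant and of both WT libraries), was small for the abundant members. The interval excluded 0 for *Hand2* (0.02 to 0.12), *Phox2a* (0.07 to 0.22), *Gata2* (0.05 to 0.24), *Isl1* (0.01 to 0.21) and *Tfap2b* (0.11 to 0.32) in the library labelled TRKC+/-. In AdNTF3-Tg it did so for *Phox2a* (−0.18 to −0.03) and *Tfap2b* (0.09 to 0.30). These intervals compare the libraries and not the genotypes, and the edgeR test above, which adds the spread between the WT libraries, called none of these genes. The interval for *Insm1* included 0 in both mutants (−0.23 to 1.37 and −0.80 to 0.99), and excluded it between the WT libraries (0.23 to 2.67).

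**Figure D3:**
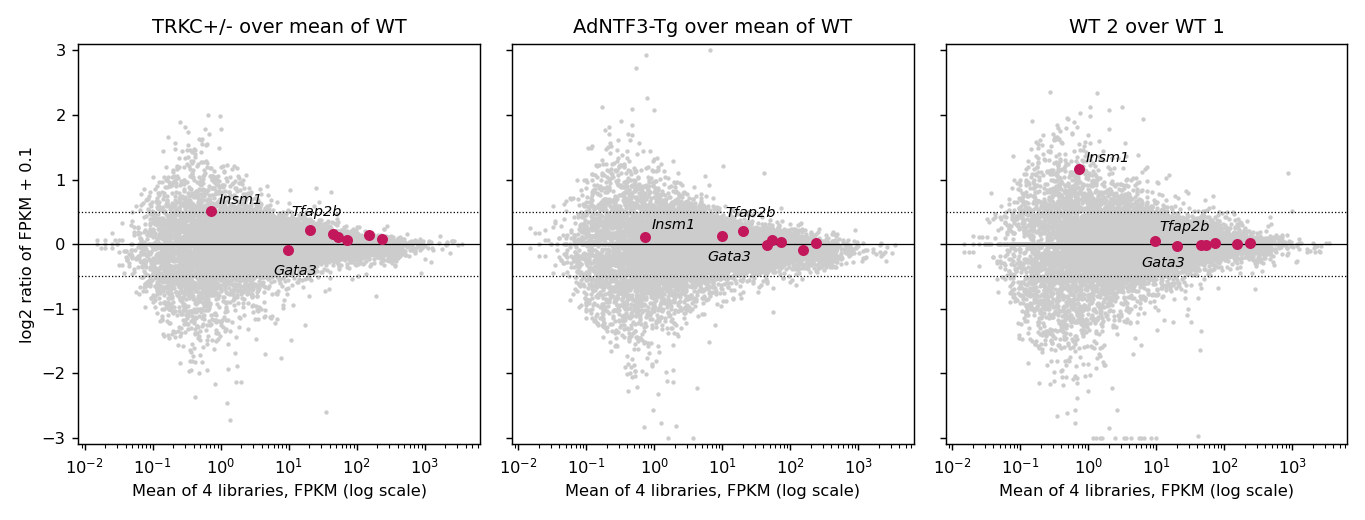
Log2 ratio of FPKM + 0.1 against mean FPKM (log scale) for the 15275 genes listed in all 4 libraries (grey, ratios beyond 3 drawn at 3) and the 8 members (red), for the library labelled TRKC+/- and AdNTF3-Tg over the mean of WT and for WT_2 over WT_1. Dotted lines mark the cutoff of 0.5. Members lie near 0 among genes of like level, *Insm1* among the scattered low genes and at 1.17 between the WT libraries.

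Related genes were read side by side, since several of these factors come in pairs. *Hand2* exceeded *Hand1* by between 3.25-fold and 3.30-fold in FPKM in the 4 libraries. *Gata2* exceeded *Gata3* by 4.66-fold in WT_1 (exact 95% counting interval 4.08 to 5.35), 4.49-fold in WT_2 (3.94 to 5.14), 5.39-fold for the library labelled TRKC+/- (4.72 to 6.18) and 4.15-fold for AdNTF3-Tg (3.65 to 4.73). For this pair, the interval of each mutant overlapped with those of both WT libraries. *Insm2*, the paralog of *Insm1*, had 23.5, 24.0, 23.4 and 24.2 FPKM, with log2 ratios of −0.02 and 0.03 in the mutants, and exceeded *Insm1* by between 24.8-fold and 67.0-fold. *Isl2* had 2 to 9 reads, against 1115 to 1224 for *Isl1*, and *Tfap2a* 7 to 21, against 990 to 1172 for *Tfap2b*. *Gata1*, *Gata4*, *Gata6* and *Tfap2e* had at most 2 reads in any library, under the 3 reads taken as the smallest signal, and *Gata5*, *Tfap2c* and *Tfap2d* were not listed.

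**Figure D4:**
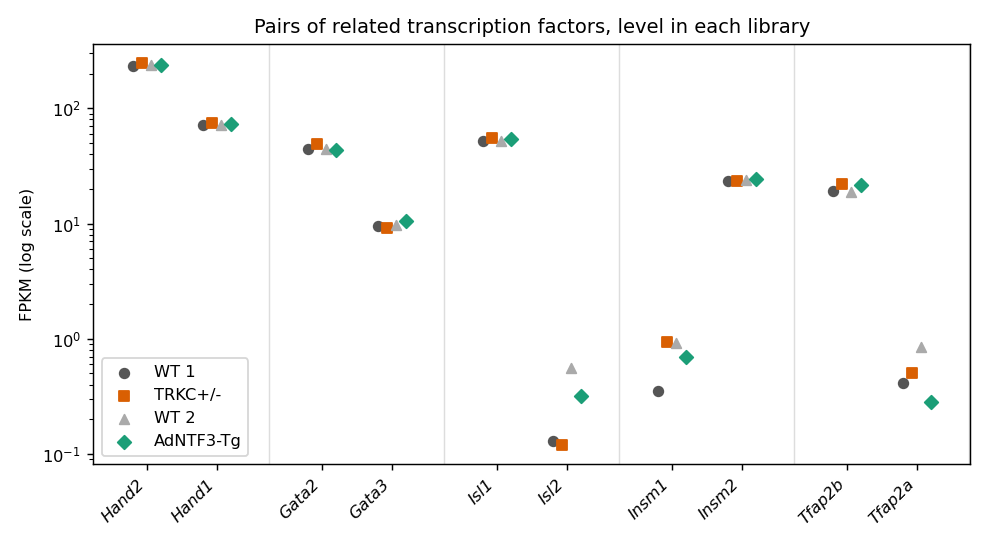
FPKM (log scale) of 5 pairs of related transcription factor genes in each of the 4 libraries, 1 point per library. *Hand1* and *Gata3* lie below their partners in each library, by 3.25-fold to 5.39-fold, while *Isl2*, *Insm1* and *Tfap2a* lie under 1 FPKM beside partners at 18.75 FPKM or more.

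Other transcription factors of the sympathetic lineage were read from a further list. All 13 genes of a list with *Hmx1*, *Tbx20* and *Eya1* were listed in the 4 libraries. In the library labelled TRKC+/- 0 of the 13 passed the cutoff, beside 8.56% of all genes, and in AdNTF3-Tg 1 did, beside 11%. It was *Tlx3*, with 7, 10, 8 and 18 reads and a log2 ratio of 0.99. *Tlx3* had an unadjusted p of 0.113 in edgeR, which called 0 of the genes of the list in either comparison. Medians of the list were 0.10 and 0.02, beside 0.00 and −0.00 over all genes. *Hmx1*, a homeobox gene of sympathetic and sensory ganglia, had 42.5, 43.8, 54.4 and 46.1 FPKM, a log2 difference of 0.33 in the library labelled TRKC+/- (SE 0.11, unadjusted p = 0.0177, adjusted p = 0.999), the largest among the 6 genes of the list with a mean of at least 10 FPKM. *Tbx20* had 22.9, 21.5, 23.2 and 23.6 FPKM and *Eya1* 26.2, 23.9, 24.6 and 23.7.

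Proteins that bind the members or hold them in check were read from a list of 22, of which 21 were listed in all 4 libraries and 13 had a mean of at least 10 FPKM. *Zfpm1*, which encodes the GATA cofactor FOG1, had 13.8 to 14.95 FPKM. *Lmo1*, whose LIM-only product binds LDB1, had 46.9 to 53.8 FPKM, and *Ldb1*, the bridging protein of LIM and GATA complexes, 28.8 to 35.7. *Id3*, a dominant inhibitor of helix-loop-helix factors, had 89.8 to 106 FPKM. Among the 13, the log2 ratio to the mean of WT farthest from 0 was that of *Id2* in the library labelled TRKC+/- (−0.46) and that of *Lmo4* in AdNTF3-Tg (−0.36), followed there by *Id1* (−0.32). The value of *Id2* depended on the control, at −0.23 to WT_1 and −0.66 to WT_2, and WT_2 over WT_1 was at 0.43. In the library labelled TRKC+/- 8 of the 21 were above and 8 below both WT libraries, beside 31.9% and 30.8% of all genes, and in AdNTF3-Tg 7 were above and 10 below, beside 33.7% and 34% of all genes. Past the cutoff were *Ldb2* (higher) and *Lmo3* (lower) in the library labelled TRKC+/-, and *Lmo3* and *Id4* (both lower) in AdNTF3-Tg, 2 of 21 in each, beside 8.56% and 11% of all genes, with 3 to 10 reads for *Lmo3* and 9 to 24 for *Id4*. *Ldb2* was at 0.52 to the mean of WT and at 0.55 to WT_1, and missed the cutoff against WT_2 (0.48). *Lmo3* had too few reads for the edgeR test, which called 0 of the others in either comparison, and medians were 0.02 and −0.07.

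Genes that the factors are known to act on, or that mark the mature neuron, were read as well. All 16 of a list with *Th*, *Dbh*, *Ddc*, *Slc18a2*, *Ret* and *Npy* were above 10 FPKM, and 0 of 16 passed the cutoff in the library labelled TRKC+/-, in AdNTF3-Tg or between the WT libraries, beside 8.56%, 11% and 13.4% of all genes. Those shares include genes of low level, which pass more often than abundant ones. The medians were −0.02 in the library labelled TRKC+/- and 0.00 in AdNTF3-Tg. *Dbh*, a direct target of PHOX2A, had 2154 FPKM in WT_1, 2100 in WT_2, 2170 for the library labelled TRKC+/- and 2152 for AdNTF3-Tg, and *Th*, the first enzyme of catecholamine synthesis, 2680, 2631, 2753 and 2576. Among the ratios of either mutant to the mean of WT, the largest in absolute value was that of *Npy*, a neuropeptide gene, in AdNTF3-Tg. It had 2733, 2501, 2690 and 2181 FPKM and an edgeR log2 difference of −0.28. Between the WT libraries *Slc18a2* was at 0.28.

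Several members are also known from other cells that a ganglion can hold, and the markers of those cells were read as well. *Gata2* is used by mast cells and endothelium and *Gata3* by T cells. Mast cell markers summed to between 3.11 and 4.98 FPKM, most of it *Kit*, and *Ms4a2* was not listed. The 5 T cell markers summed to between 0.17 and 1.19 FPKM, with *Cd3d* and *Trac* not listed and *Lck*, the only one listed in all 4 libraries, at 3, 9, 4 and 16 reads. *Lck* was past the cutoff in AdNTF3-Tg (log2 ratio 1.13 to the mean of WT), where *Gata3* was at 0.13, and in the WT pair (1.18), where *Gata3* was at 0.04. The 5 endothelial markers summed to between 26.1 and 30.8 FPKM, and 0 of them passed the cutoff. Satellite glia markers summed to between 402 and 553 FPKM and Schwann cell markers to between 540 and 575. Against the mean of WT, 0 of 5 markers of each list passed the cutoff in the library labelled TRKC+/-, with medians of 0.09 and 0.20. In AdNTF3-Tg 0 of 5 and 1 of 5 passed (*Mag* at −0.72), with medians of 0.06 and −0.02. The value of *Mag* there was −0.95 to WT_1 and −0.45 to WT_2, which is inside the cutoff. Between the WT libraries 2 of 5 and 1 of 5 passed, beside 13.4% of all genes. The part of these cells in the values of the members was not tested. Of the 6 sensory neuron markers, which share *Isl1* with sympathetic neurons, *Avil* had 195 to 207 FPKM and the other 5 between 0.14 and 6.19. Which cells the *Avil* reads came from was not tested. In the library labelled TRKC+/- 2 of the 6 were lower past the cutoff against the mean of WT (*Scn10a* at −1.01 and *Scn11a* at −0.97) and 1 was higher (*Trpv1* at 0.74), beside 8.56% of all genes past it in either direction, with a median of −0.44, and the log2 ratio of *Isl1* was 0.11. In AdNTF3-Tg 4 of the 6 were higher past it (*Scn10a*, *Calca*, *Trpv1* and *Prdm12*) and 0 lower, beside 11% of all genes, with a median of 0.57, and that of *Isl1* was 0.06. Between the WT libraries 2 of the 6 passed, beside 13.4%. Against both WT libraries taken singly, *Scn10a* and *Scn11a* passed in the library labelled TRKC+/- and *Calca* alone in AdNTF3-Tg. *Trpv1* was at 0.38 to WT_1 in either mutant and *Scn10a* in AdNTF3-Tg at 0.44, while *Prdm12* in AdNTF3-Tg was at 0.45 to WT_2. The 5 markers other than *Avil* had 3 to 52 reads per library. *Prdm12* had too few reads for the edgeR test, which called none of the others in either comparison.

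Among the members with at least 20 reads in every library, *Phox2a* had the widest range, 0.24 on the log2 scale. The 3 genes above a mean of 1 FPKM whose values over the 4 libraries, each taken relative to their own mean, lay nearest to it were *Carmil1* (Euclidean distance 0.0027 on the log2 scale), *Arl10* (0.0075) and *Ecel1* (0.021). *Ecel1* had 57.4 FPKM in WT_1, 56.6 in WT_2, 62.7 for the library labelled TRKC+/- and 52.5 for AdNTF3-Tg. With 4 libraries such a likeness is weak, and 465 of 12751 genes lay within 0.1 of *Phox2a*.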

How the data were processed

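RNA from pooled T1–T4 SG was enriched for mRNA with oligo(dT) and sequenced as single-end reads. Per the paper's methods, the authors filtered reads with SOAPnuke and mapped them to mm9 with HISAT2, whereas the submitters' processing notes name mm10 and RSEM, so that the build behind the counts is not settled. For each Entrez gene the authors deposited an expected count (an estimated, unnormalized number of reads, whole for 92.6% to 93.7% of genes) and an FPKM value, scaled to gene length and library. Genes without reads were not listed. Symbols came from a RefSeq table on GRCm38.p6 (99.7% of 17667 identifiers), and positions from GENCODE on NCBIM37.

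Libraries were grouped by genotype label. Log2 ratios used FPKM + 0.1, which understates changes of low genes, against the mean of the 2 WT libraries, with the study's cutoff of 0.5. Expected counts, rounded to whole numbers and filtered with filterByExpr, were tested with edgeR (4.0.16, TMM, 3 groups, Benjamini-Hochberg threshold 0.05). DESeq2 (1.42.0) was an alternative. The p-values rest on the spread between 2 pooled WT libraries. Clopper-Pearson intervals (95%), like the floor of 3 reads, reflect counting error alone. Scripts were tested on simulated data. Named genes were the members, *Ntrk3*, genes of the fixed lists with at least 10 FPKM or past the cutoff against both WT libraries, overlapping genes (within 5 kb) and 3 genes of similar profile; other genes of the lists were named after their values were seen. Members and lists were chosen with earlier results of these data known. Of the list of lineage transcription factors, 2 genes are not reported here.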

Additional observations from a re-analysis of the deposited data

How the results depend on the processing

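For the library labelled TRKC+/-, the 1308 genes past the cutoff became 269 with a pseudocount of 1 FPKM, 427 when genes averaging under 1 FPKM were left out, and 2602 with unlisted genes taken as 0. The 1 member past it, *Insm1*, was lost (0 members) with that pseudocount and with that filter. With 1 WT library as control the members past it numbered 0 to 1, in either mutant: without WT_1 there were 0, and without WT_2 *Insm1* passed, at 1.21 and 0.81. For AdNTF3-Tg, 1674 genes became 404, 691 and 2996 under those settings. The genes called by edgeR for the library labelled TRKC+/-, 1, became 2 with RLE size factors, 2 with DESeq2 and 0 without the filter on low counts. The genes at an unadjusted p under 0.05, 273 and 832, became 21 and 64 with DESeq2. Counts within the gene lists were not recomputed under the alternatives. Under each alternative the 7 members other than *Insm1* stayed between −0.11 and 0.23. Of 126 recomputed member values, 4 moved by more than the spread (SD) between the WT libraries, and 1 changed sign, *Insm1* in AdNTF3-Tg, from 0.11 to −0.35 without WT_1. The count of 4 does not measure robustness. Member values against 1 WT library stay within that spread by arithmetic, as *Insm1* did at 1.21 and 0.04 in the library labelled TRKC+/-. Some other settings leave member values unchanged. Adjusted p-values of members were at least 0.786 in every fit. No paired analysis was possible because each mutant has 1 library and its label carries no replicate number. The table names couple WT_1 with TRKC+/- and WT_2 with AdNTF3-Tg: with those controls *Insm1* was at 1.21 and −0.35. The test without a WT library was not run, since no residual degrees of freedom would remain. Depth limits *Insm1*, at 9 to 25 reads.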
